A study of Homo sapiens with 6 samples.

Results

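A set of 8 long noncoding RNAs was followed across 6 RNA-seq libraries of LX2, an established human line of stellate cells in the activated state, in which these liver cells lay down collagen. The members were chosen by name: MALAT1, NEAT1, TUG1, NORAD, GAS5, SNHG1, SNHG8 and SNHG15 are 8 of the 58243 Ensembl identifiers in the deposited table, and all 8 were among the 18775 genes that passed the filter on low counts. The cells of 3 libraries had received an interfering RNA that targets AURKA (siAURKA, labelled AURKA knockdown), and those of 3 libraries a control interfering RNA (siNC, labelled WT), each by transfection and for 48 h. The comparison asks what differs in these cells after knockdown of AURKA, the gene of the mitotic kinase Aurora A. All libraries come from 1 cell line, and the labels do not say whether libraries of a group came from separate cultures, so a p-value here refers to the spread among these libraries and that spread may be technical.

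MALAT1, NEAT1 and TUG1 are transcripts that stay mainly in the nucleus. MALAT1 gathers in nuclear speckles, where splicing factors are stored, and NEAT1 is the scaffold of paraspeckles. MALAT1 and the longest transcript of NEAT1 end without a poly(A) tail, in a triple helix that protects the end from decay. NORAD is mainly cytoplasmic and carries repeated sites for the Pumilio proteins, which repress the mRNAs they bind. GAS5, SNHG1, SNHG8 and SNHG15 are host transcripts: small nucleolar RNAs (snoRNAs), the guides for chemical modification of ribosomal RNA, are cut out of their introns. The spliced remainder of GAS5 and of SNHG1 is removed by nonsense-mediated decay, and GAS5 begins with the pyrimidine tract that ties the transcription and translation of ribosomal protein genes to growth.

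The sequences that set these classes apart were read from the transcripts of GENCODE release 29 (GRCh38). The 3′ ends of MALAT1 (chr11:65506017-65506116, plus strand) and of the longest NEAT1 transcript (chr11:65445441-65445540, plus strand) are shown because they lack a poly(A) tail. For MALAT1 the stretch is bases 8256 to 8355 of an annotated transcript of 8708 nt, which runs on past the A-rich tract. Other annotated ends of NEAT1 were not examined. Capitals mark the last 11 letters of the A-rich tract of the triple helix in both and both U-rich stretches in MALAT1. Of the U-rich stretches in NEAT1, only the second is marked, whose letters match those of MALAT1.
MALAT1 3′ end: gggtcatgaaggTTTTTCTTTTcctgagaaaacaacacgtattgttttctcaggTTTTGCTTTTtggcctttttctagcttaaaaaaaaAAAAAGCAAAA
NEAT1 3′ end: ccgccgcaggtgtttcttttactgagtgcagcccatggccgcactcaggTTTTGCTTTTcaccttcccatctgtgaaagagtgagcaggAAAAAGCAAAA
The 11 letters AAAAAGCAAAA, searched on the sense strand in the longest transcript of each gene, occurred in 350 of 51076 transcripts of at least 200 nt (0.685%). MALAT1 held them 2 times and NEAT1 1 time, and no other member held them.

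The Pumilio recognition element TGTANATA, searched on the sense strand only, was found 15 times in the 5339 nt of NORAD. NEAT1 held it 6 times in 22743 nt, TUG1 2 times in 7469 nt and SNHG1 1 time in 2768 nt, and the other 4 members did not hold it. It occurred in 15.4% of the 51076 transcripts. Of 5862 transcripts of 4000 to 7000 nt, 41.9% held it at least once and 3 (0.0512%) held it as often as NORAD. In NORAD, 3 pairs of elements started 9 nt apart, and these are shown with 10 bases on either side, the elements in capitals. From the 5′ end they lie at chr20:36049493-36049529, chr20:36048296-36048332 and chr20:36047660-36047696, all on the minus strand.
NORAD first pair: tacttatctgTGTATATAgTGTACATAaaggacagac
NORAD second pair: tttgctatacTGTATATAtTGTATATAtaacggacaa
NORAD last pair: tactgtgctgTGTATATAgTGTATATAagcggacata
A match describes the letters and does not show binding.

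The first 30 bases of the longest annotated transcript of each host are shown because a start of cytosine followed by pyrimidines marks the transcripts tied to growth; leading pyrimidines are in capitals. They lie at chr1:173867960-173867989 (minus strand) for GAS5, chr11:62855856-62855885 (minus strand) for SNHG1, chr4:118278709-118278738 (plus strand) for SNHG8 and chr7:44986608-44986637 (minus strand) for SNHG15.
GAS5 5′ end: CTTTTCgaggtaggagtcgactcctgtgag
SNHG1 5′ end: CTCatttttctactgctcgtggtaagtggc
SNHG8 5′ end: ggaatagcgtcatcagttctataagagagc
SNHG15 5′ end: agacctgtactccgtactccgtacttcgta
GAS5 opened with 6 pyrimidines and SNHG1 with 3, while SNHG8 and SNHG15 opened with a purine. A start of cytosine and at least 4 more pyrimidines was found in 2.08% of the 51076 transcripts. Other annotated starts of the same genes were not examined.

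RefSeq places 11 snoRNA genes inside GAS5, 9 inside SNHG1, 1 inside SNHG8 and 1 inside SNHG15. Of these, 3 are shown, 1 for each host with snoRNA genes in GENCODE: SNORD27 in SNHG1 (chr11:62855012-62855083, minus strand), a box C/D RNA that guides ribose methylation, and SNORA24 in SNHG8 (chr4:118279190-118279320, plus strand) and SNORA9 in SNHG15 (chr7:44985378-44985510, minus strand), box H/ACA RNAs that guide pseudouridylation. Capitals mark the C and D boxes of SNORD27 and the ACA box of SNORA24 and SNORA9.
SNORD27: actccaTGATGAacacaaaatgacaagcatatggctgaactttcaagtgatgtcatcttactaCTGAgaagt
SNORA24: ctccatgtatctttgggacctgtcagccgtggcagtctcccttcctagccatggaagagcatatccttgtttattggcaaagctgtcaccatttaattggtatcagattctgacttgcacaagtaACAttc
SNORA9: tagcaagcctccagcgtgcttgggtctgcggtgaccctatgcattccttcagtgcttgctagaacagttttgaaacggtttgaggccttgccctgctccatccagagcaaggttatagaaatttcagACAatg

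**Figure D1:**
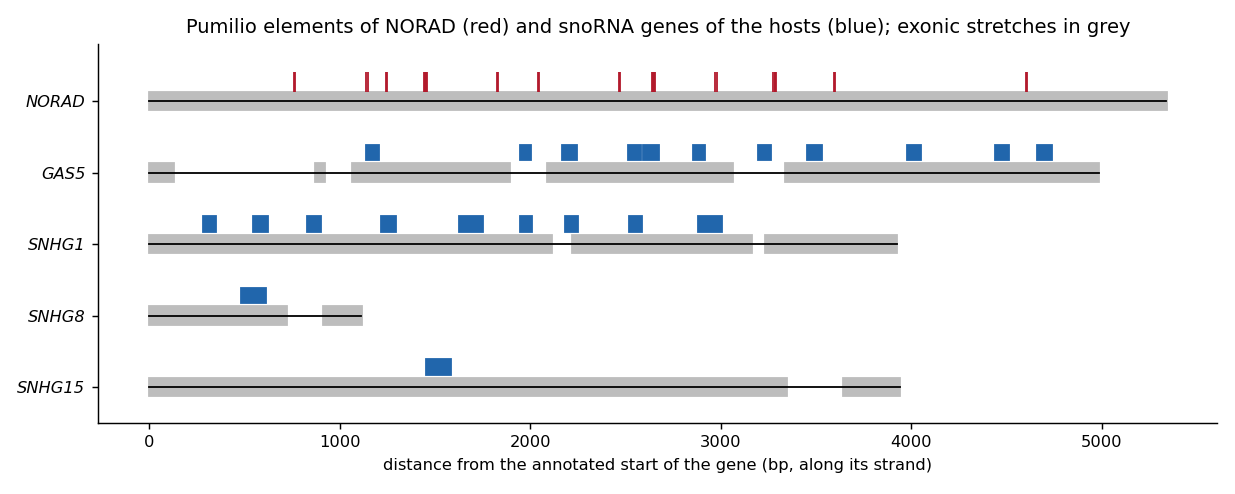
Horizontal bars show the exonic stretches of NORAD and the 4 snoRNA hosts by distance from the annotated gene start in bp along the strand, red ticks the 15 Pumilio elements of NORAD, and blue boxes the snoRNA genes that RefSeq places inside each host. GAS5 holds 11 snoRNA genes and SNHG1 9, while SNHG8 and SNHG15 hold 1 each.

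Totals of the deposited estimated counts ran from 33196829 to 53357402 units in siAURKA libraries and from 23366242 to 41764470 in siNC libraries, with siNC replicate 2 the shallowest. AURKA itself had 49.8, 47.0 and 51.1 CPM (counts scaled by TMM to a common library total) in siAURKA replicates 1, 2 and 3, against 136, 128 and 95.02 CPM in siNC replicates 1, 2 and 3. Its log2 fold change was -1.28 (SE 0.28, edgeR unadjusted p = 0.00198, adjusted p = 0.9999), and the groups did not overlap. The 12 stellate markers summed to 8466 to 12413 CPM in siAURKA and 9126 to 13207 CPM in siNC libraries. VIM held the largest part of that sum, at a mean of 6649 CPM. COL1A1 followed at a mean of 1491 CPM, FN1 at 816, SPARC at 639, TIMP1 at 483 and LOX at 136 CPM. COL4A1 averaged 72.7 CPM, CCN2 54.0 CPM and PDGFRB 32.4 CPM. ACTA2, the smooth muscle actin of activated stellate cells, averaged 16.4 CPM, COL1A2 6.73 CPM and THY1 4.96 CPM. The 8 hepatocyte markers summed to 18.1 to 34.5 CPM in siAURKA and 15.3 to 45.6 CPM in siNC libraries, with 3 of them (ALB, APOB and TTR) at 0 throughout. Nearly all of that sum was SERPINA1, at a mean of 27.4 CPM. Over all libraries, cholangiocyte markers summed to 40.7 to 97.7 CPM, mostly SOX9, and macrophage and leukocyte markers to 49.0 to 125 CPM, mostly CD68. Endothelial markers summed to 3.25 to 12.4 CPM. Same-numbered libraries of the 2 groups deviated together, and both libraries numbered 1 carried lower GC content, weighted by counts, than the rest: 49.4%, 52.2% and 51.1% in siAURKA replicates 1, 2 and 3, against 49.2%, 53.3% and 51.5% in siNC replicates 1, 2 and 3.

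Per kilobase of exonic sequence, NORAD stood highest of the 8 at a mean of 61.5 CPM per kb over the 6 libraries (range 27.6 to 140.2). MALAT1 followed at 25.6 CPM per kb (8.21 to 46.5), then GAS5 at 16.8 (11 to 22.1), SNHG1 at 15.96 (12.6 to 20.3), NEAT1 at 13.6 (6.98 to 17.6) and TUG1 at 11.3 (0.362 to 16.01). SNHG8 with 3.17 CPM per kb (1.91 to 5.01) and SNHG15 with 2.75 CPM per kb (1.76 to 3.99) were lowest. Neighbours in this order overlapped in range, TUG1 and SNHG8 through siNC replicate 2 alone. Dividing by the longest transcript in place of all exonic bases put GAS5 second, at 35.99 CPM per kb, since its exonic length of 3631 bp sums many splice forms and its longest transcript has 1698 nt. By either length, NEAT1 and TUG1 were on average not above the hosts GAS5 and SNHG1, while the label of abundance did not hold for SNHG8 and SNHG15. Each division takes a single length for all forms of a gene, so a member counted mostly from shorter forms is placed too low. Which forms the counts came from was not tested. By mean CPM, NORAD ranked 420, NEAT1 480, MALAT1 756 and TUG1 2000 among the 18775 tested genes, GAS5 ranked 4094 and SNHG1 4171, but SNHG15 ranked 10491 and SNHG8 13136.

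None of the 8 passed the edgeR test between siAURKA and siNC. The edgeR quasi-likelihood test called 0 genes in all at an adjusted p of 0.05 (0% of 18775), and 237 (1.26%) had an unadjusted p below 0.05, with no member among them. DESeq2 without a replicate block called 17 genes (0.0905%) and limma-voom 0 (0%), again with no member among them. The groups overlapped for every member, while 5.85% of tested genes had groups that did not overlap. Over the 8 members the median log2 fold change was 0.01, with 4 above and 4 below 0, beside -0.01 over all tested genes. In such bulk libraries, fewer cells with a transcript and less of it per cell cannot be told apart.

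**Figure D2:**
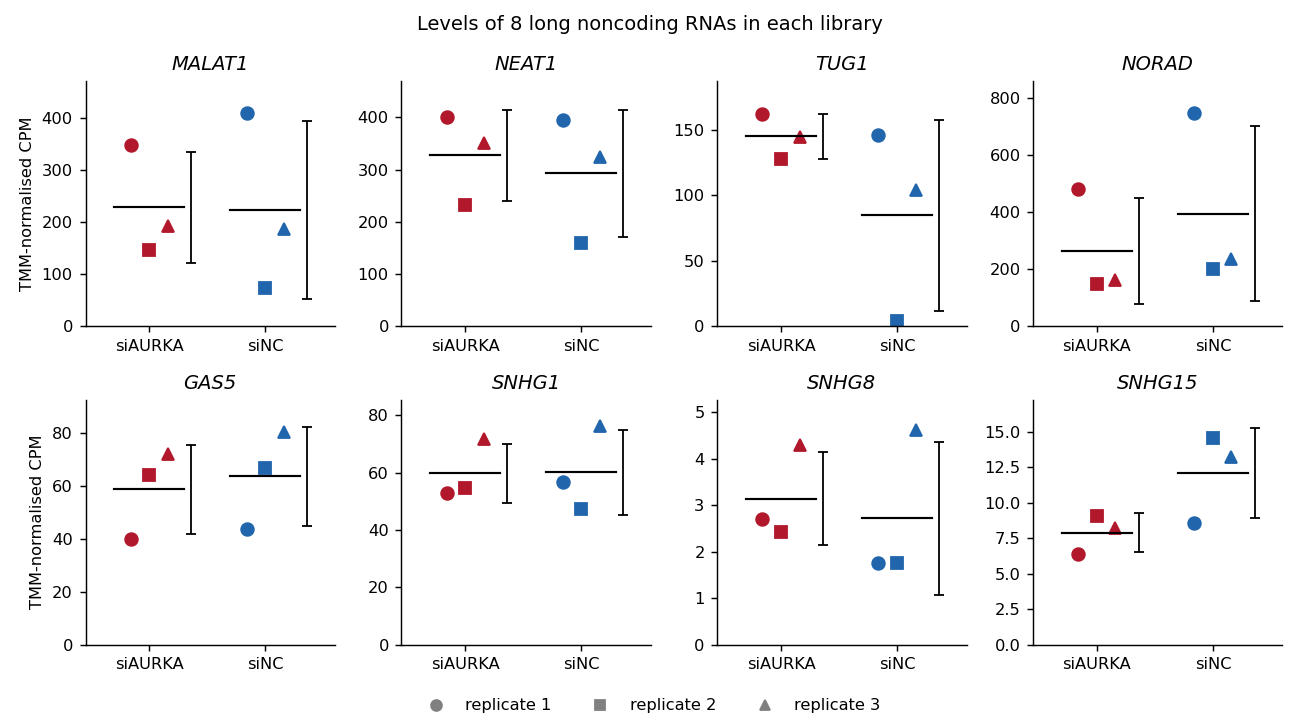
TMM-normalised CPM of each RNA in the 3 siAURKA libraries (red) and the 3 siNC libraries (blue), with symbols for the replicate number, lines for group means and bars for 1 SD on either side. The groups overlap in all 8 panels, and siNC replicate 2 lies near 0 for TUG1 (3.67 CPM).

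MALAT1 (chr11:65497688-65506516, plus strand, a single exonic block of 8829 bp) had 349, 145 and 192 CPM in siAURKA replicates 1, 2 and 3, against 411, 72.5 and 187 CPM in siNC replicates 1, 2 and 3. Both libraries numbered 1 were high and siNC replicate 2 was low. The means were 229 ± 107 CPM in siAURKA and 223 ± 172 CPM in siNC (SD, n = 3 each), and the log2 fold change was 0.03 (SE 0.62, edgeR unadjusted p = 0.959). Between same-numbered libraries the differences in log2 CPM, siAURKA minus siNC, were -0.24, 1.0 and 0.03 for numbers 1, 2 and 3. The pairs did not share a direction, and the pair with siNC replicate 2 stood apart from the other two.

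NEAT1 (chr11:65422774-65445540, plus strand, 22767 bp) had 401, 231 and 350.1 CPM in siAURKA replicates 1, 2 and 3, against 395, 159 and 324 CPM in siNC replicates 1, 2 and 3. It followed the same order as MALAT1 within each group, over a narrower range. The means were 327 ± 87.0 CPM in siAURKA and 293 ± 121 CPM in siNC (SD, n = 3 each), and the log2 fold change was 0.16 (SE 0.40, edgeR unadjusted p = 0.700). The pair differences in log2 CPM were 0.02, 0.54 and 0.11, all above 0, with the first at about the level of no difference.

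TUG1 (chr22:30969245-30979395, plus strand, 10151 bp) had 163, 128 and 145 CPM in siAURKA replicates 1, 2 and 3, against 146, 3.67 and 105 CPM in siNC replicates 1, 2 and 3. The highest library lay 1.56 times above the lowest of the others once siNC replicate 2, far below them all, was set aside. The means were 145 ± 17.2 CPM in siAURKA and 84.7 ± 73.2 CPM in siNC (SD, n = 3 each), and the log2 fold change was 0.78 (SE 0.97, edgeR unadjusted p = 0.447). Without siNC replicate 2 the log2 fold change was 0.22 (SE 0.31, edgeR unadjusted p = 0.502). The value depended on the fit, at 1.56 with the edgeR replicate block and 1.80 with limma-voom, and was called in none. The pair differences in log2 CPM were 0.16, 5.10 and 0.47, so siAURKA was higher in all 3 pairs, by 1.11-fold and 1.39-fold outside the pair that holds siNC replicate 2.

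NORAD (chr20:36045622-36050960, minus strand, a single exon of 5339 bp that shares no base with exons of other genes) had 479.7, 147 and 163 CPM in siAURKA replicates 1, 2 and 3, against 749, 199 and 234 CPM in siNC replicates 1, 2 and 3. The libraries numbered 1 were far above the rest in both groups, and within each number the siAURKA library was the lower. The means were 263 ± 188 CPM in siAURKA and 394 ± 308 CPM in siNC (SD, n = 3 each), and the log2 fold change was -0.58 (SE 0.66, edgeR unadjusted p = 0.404). The pair differences in log2 CPM were -0.64, -0.43 and -0.53, a range of 0.21 beside a median range of 0.72 over all tested genes. A difference of -0.43 or lower in each of the 3 pairs was found for 399 tested genes (2.13%), NORAD included.

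With the replicate number as a block, the edgeR log2 fold change of NORAD was -0.53 (SE 0.11, unadjusted p = 0.00385, adjusted p = 0.552). That fit called 0 genes (0%), and 8.48% of tested genes had an unadjusted p below 0.05 in it. DESeq2 with the same block gave -0.55 (SE 0.15, unadjusted p = 0.000394, adjusted p = 0.0303) and so called NORAD, the only member among the 246 genes it called (1.31% of 18775). That call was lost without the libraries numbered 1 (-0.50, adjusted p = 0.641) and without those numbered 3 (-0.57, adjusted p = 0.99993), and was kept without those numbered 2 (-0.59, adjusted p = 0.0192). These 3 repeats were chosen after seeing the data and leave 2 pairs each. Left unblocked, the fold change of NORAD depended on which libraries numbered 1 were in the fit: leaving out siNC replicate 1 gave 0.29, and leaving out siAURKA replicate 1 gave -1.36.

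Among the hosts, GAS5 (chr1:173863900-173868882, minus strand) had 39.9, 64.1 and 72.0 CPM in siAURKA replicates 1, 2 and 3, against 43.6, 66.8 and 80.3 CPM in siNC replicates 1, 2 and 3. Both groups ran in the same order with the libraries numbered 1 lowest, the reverse of the nuclear RNAs. The means were 58.7 ± 16.7 CPM in siAURKA and 63.6 ± 18.6 CPM in siNC (SD, n = 3 each), and the log2 fold change was -0.12 (SE 0.36, edgeR unadjusted p = 0.758). The pair differences in log2 CPM were -0.13, -0.06 and -0.16. Though all 3 were below 0, differences of -0.06 or lower in each pair were found for 13.3% of tested genes.

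SNHG1 (chr11:62851988-62855914, minus strand) had 53.04, 54.8 and 71.6 CPM in siAURKA replicates 1, 2 and 3, against 56.7, 47.3 and 76.2 CPM in siNC replicates 1, 2 and 3. Libraries numbered 3 were highest in both groups. The means were 59.8 ± 10.3 CPM in siAURKA and 60.1 ± 14.8 CPM in siNC (SD, n = 3 each), and the log2 fold change was -0.0070 (SE 0.31, edgeR unadjusted p = 0.982). The pair differences in log2 CPM were -0.10, 0.21 and -0.09, and so had no shared direction. Exons of other genes, which are its own snoRNAs, cover 15.3% of its exonic bases.

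SNHG8 (chr4:118278709-118279823, plus strand) was the lowest member, at 2.71, 2.43 and 4.29 CPM in siAURKA replicates 1, 2 and 3, against 1.76, 1.77 and 4.62 CPM in siNC replicates 1, 2 and 3. Its counts were 150, 78 and 193 units in siAURKA and 76, 37 and 165 units in siNC, so counting error weighs more on it than on the other members. The means were 3.14 ± 1.01 CPM in siAURKA and 2.72 ± 1.65 CPM in siNC (SD, n = 3 each), and the log2 fold change was 0.21 (SE 0.52, edgeR unadjusted p = 0.698). Its pair differences in log2 CPM were 0.61, 0.45 and -0.10, with no shared direction.

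SNHG15 (chr7:44983023-44986961, minus strand) had 6.40, 9.06 and 8.25 CPM in siAURKA replicates 1, 2 and 3, against 8.55, 14.6 and 13.2 CPM in siNC replicates 1, 2 and 3. The groups met only in siAURKA replicate 2, which lay above siNC replicate 1. The means were 7.90 ± 1.36 CPM in siAURKA and 12.1 ± 3.16 CPM in siNC (SD, n = 3 each), and the log2 fold change was -0.62 (SE 0.34, edgeR unadjusted p = 0.113). The pair differences in log2 CPM were -0.41, -0.68 and -0.68, and 427 tested genes (2.27%) had differences of -0.41 or lower in each pair, SNHG15 included. With the replicate block the log2 fold change was -0.59 (SE 0.18, edgeR unadjusted p = 0.0210, adjusted p = 0.569), and DESeq2 with the block gave an adjusted p of 0.246, so SNHG15 passed no test.

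Read over pairs, 3 members (NORAD, GAS5 and SNHG15) were lower in siAURKA in 3 of 3 pairs, as were 17.6% of tested genes. Another 2 (NEAT1 and TUG1) were higher in 3 of 3 pairs, as were 17.9% of tested genes. Directions were mixed within both classes: MALAT1 among the nuclear RNAs, and SNHG1 and SNHG8 among the hosts, had pairs of both signs.

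**Figure D3:**
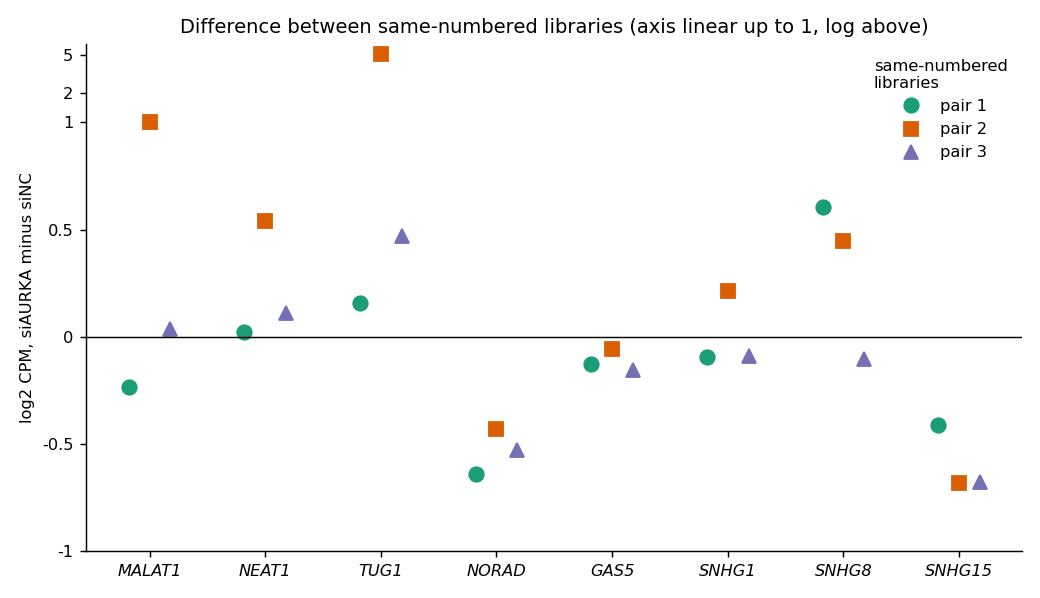
Difference in log2 CPM between the siAURKA and the siNC library of the same number, for each RNA, on an axis that is linear up to 1 and logarithmic above. The 3 pairs of NORAD lie between -0.64 and -0.43 and those of SNHG15 between -0.68 and -0.41, while TUG1 reaches 5.10 in pair 2.

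Replicate number held more of the members' spread in log2 CPM than the small interfering RNA did, with 1 exception. The split gives replicate number 3 levels and the small interfering RNA 2, which raises the share of replicate number even for spread without a pattern. The shares were not adjusted for this. In a split of each gene's sum of squares over the 6 libraries, replicate number took 97.4% for GAS5, 91.2% for SNHG1, 90.01% for NORAD, 88.9% for NEAT1, 87.0% for MALAT1, 83.6% for SNHG8 and 42.0% for TUG1, against a median of 74.1% over all tested genes. SNHG15 was the exception, with 44.5% for replicate number and 53.1% for the small interfering RNA. The share left over was 33.9% for TUG1 and 0.255% for NORAD. The shares of TUG1 rest largely on siNC replicate 2, at 3.67 CPM, and so do not describe a pattern of replicate number.

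The replicate pattern differed between members. Both libraries numbered 1 stood above the other 4 for MALAT1, NEAT1, TUG1 and NORAD, a pattern of 26.9% of tested genes. Among the hosts they stood below the other 4 for GAS5 alone, a pattern of 24.5%. Both libraries numbered 3 stood above the other 4 for the hosts GAS5, SNHG1 and SNHG8, a pattern of 9.84%. SNHG15 had none of these patterns. The 4 RNAs that were high in libraries numbered 1 have exonic lengths of 5339 to 22767 bp, and the 4 hosts have 923 to 3756 bp. Among the 1819 tested genes of 40 to 45% GC and over 5000 bp, the median deviation from the other 5 libraries was 0.63 in siAURKA replicate 1 and 0.71 in siNC replicate 1 on the log2 scale. Among the 4101 genes of 40 to 50% GC and under 5000 bp it was 0.14 in siAURKA replicate 1 and 0.08 in siNC replicate 1. With offsets for GC content and length, the standard error of the log2 fold change was 0.32 against 0.62 without them for MALAT1, 0.32 against 0.40 for NEAT1, 0.45 against 0.66 for NORAD, 0.85 against 0.97 for TUG1, 0.26 against 0.31 for SNHG1, 0.44 against 0.52 for SNHG8 and 0.30 against 0.34 for SNHG15. For GAS5 it was larger, at 0.39 against 0.36, and its log2 fold change was -0.26 with the offsets and -0.12 without them. The offsets were fitted to the deviations of these same libraries, so a smaller standard error is partly built in. Whether GC content or length sets these patterns was not tested.

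The contrast between the classes was summarised in each library as the mean log2 CPM of MALAT1, NEAT1 and TUG1 minus that of the 4 hosts. This quantity keeps gene lengths fixed between libraries, so its differences can be compared while its level cannot be read as molecules. It was 4.34, 3.28 and 3.36 in siAURKA replicates 1, 2 and 3, against 4.36, 1.04 and 2.90 in siNC replicates 1, 2 and 3. The means were 3.66 ± 0.59 in siAURKA and 2.77 ± 1.66 in siNC (SD, n = 3 each), and their difference of 0.90 is smaller than the SD in siNC. By pair the differences were -0.01, 2.24 and 0.46, so most of it came from the pair with siNC replicate 2. Without TUG1 the contrast was 4.74, 3.45 and 3.64 in siAURKA replicates 1, 2 and 3, against 4.84, 2.66 and 3.31 in siNC replicates 1, 2 and 3, and the means differed by 0.34.

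**Figure D4:**
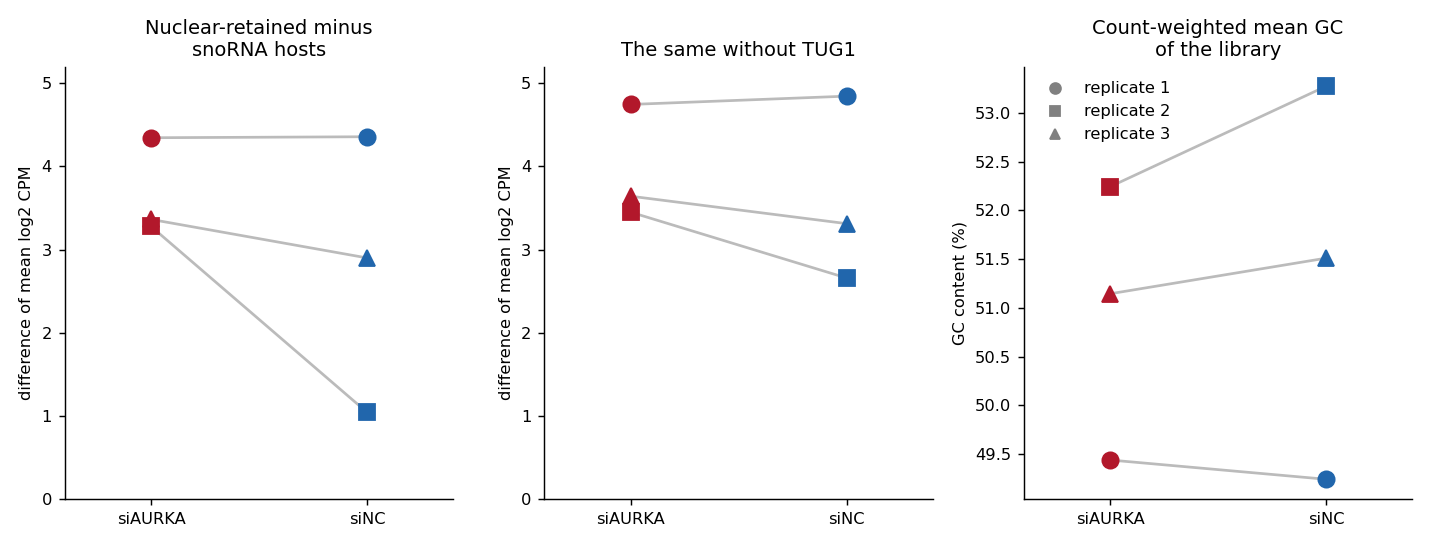
Mean log2 CPM of the nuclear-retained RNAs minus that of the 4 snoRNA hosts in each library (left), the same without TUG1 (middle) and the count-weighted mean GC content of the library in percent (right), with lines joining same-numbered libraries. Libraries numbered 1 have the highest contrast and the lowest GC content, and siNC replicate 2 the lowest contrast (1.04) and the highest GC content (53.3%).

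In siNC replicate 2 the nuclear RNAs lay furthest down. Relative to the mean log2 CPM of the other 5 libraries, the difference was -5.19 for TUG1, -1.71 for MALAT1, -1.07 for NEAT1, -0.73 for SNHG8, -0.54 for NORAD and -0.38 for SNHG1, whereas it was 0.21 for GAS5 and 0.71 for SNHG15. It was the lowest of the 6 libraries for MALAT1, NEAT1, TUG1 and SNHG1, as it was for 29.4% of tested genes, and the highest for SNHG15. Among the 1819 genes of 40 to 45% GC and over 5000 bp its median deviation was -0.61, with the 10th and 90th percentiles at -2.03 and 0.33, so MALAT1 and NEAT1 lay inside the range of genes of similar composition and TUG1 far below it. Only 37 of the 18775 tested genes deviated in this library as far down as TUG1 or further. The library had 598 genes (3.19%) more than 3 log2 units below the mean of the others, where each of the other libraries had 54 to 139.

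The near absence of TUG1 from siNC replicate 2 rested on 77 units, against 4116 in siAURKA replicate 2 and 3732 to 9011 in the other 4 libraries. The next lowest library had a CPM 28.4 times as high. A pair of noncoding genes annotated on the opposite strand lie wholly inside the TUG1 exons, AC004542.2 with 546 shared bases and AC004542.1 with 264. AC004542.2 had 15.7, 12.98 and 13.6 CPM in siAURKA replicates 1, 2 and 3, against 16.6, 4.58 and 11.1 CPM in siNC replicates 1, 2 and 3. AC004542.1 had 14.5, 10.99 and 13.6 CPM in siAURKA replicates 1, 2 and 3, against 12.6, 4.92 and 10.3 CPM in siNC replicates 1, 2 and 3. Both were lowest in siNC replicate 2, but by far less than TUG1. The ratio of AC004542.2 to TUG1 was 1.25 in siNC replicate 2 and 0.0938 to 0.114 in the other 5 libraries, and that of AC004542.1 was 1.34 and 0.0858 to 0.0983. In siNC replicate 2 these 2 nested genes, with 96 and 103 units, were thus each assigned more than the gene that contains them. As the use of strand in counting is not given in the sources used here, reads of TUG1 and of these genes cannot be told apart, and how they were divided was not tested.

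**Figure D5:**
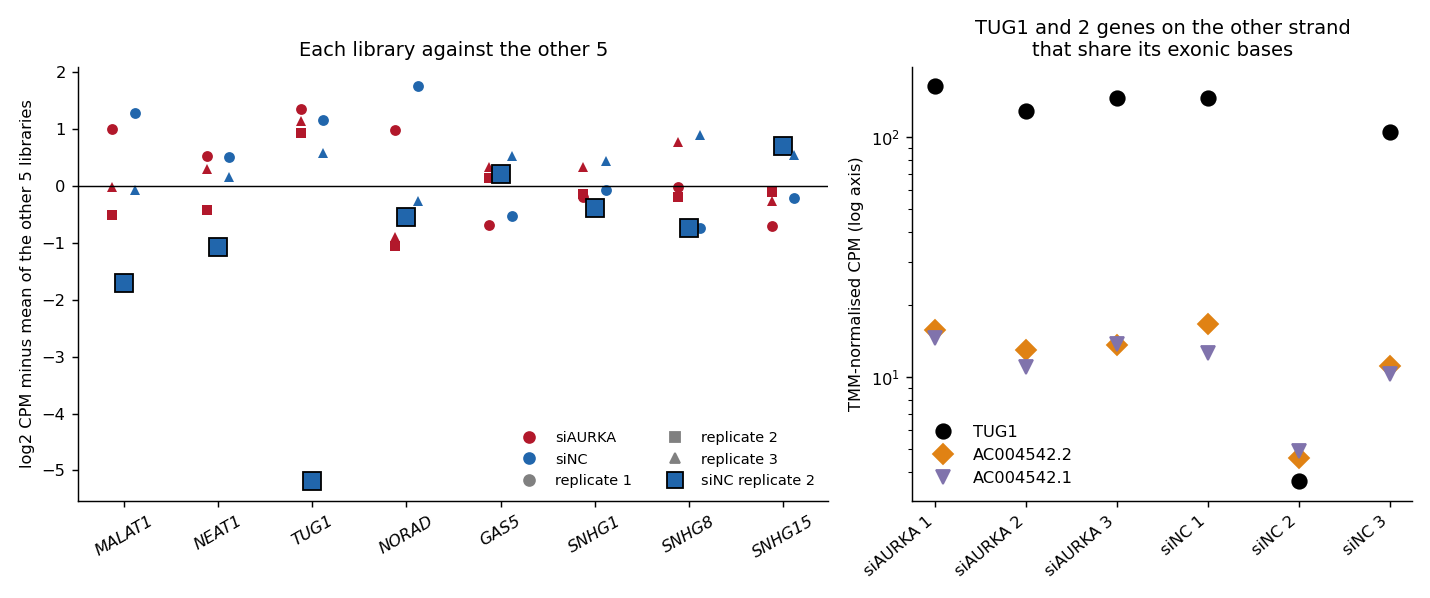
Left, each library's log2 CPM minus the mean of the other 5 for each RNA, with siNC replicate 2 as large squares; right, TMM-normalised CPM on a log axis of TUG1 and of the 2 opposite-strand genes inside its exons. In siNC replicate 2 TUG1 differs from the other libraries by -5.19 log2 units and lies at 3.67 CPM, beneath AC004542.2 at 4.58 CPM and AC004542.1 at 4.92 CPM.

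The snoRNAs themselves were scarcely counted. GENCODE release 29 places 7 snoRNA genes inside SNHG1, 1 inside SNHG8 and 1 inside SNHG15 on the host's strand, and 0 inside GAS5. SNORD26 had 65, 1 and 17 units in siAURKA replicates 1, 2 and 3, against 49, 3 and 11 units in siNC replicates 1, 2 and 3. SNORD27 had 36, 1 and 13 units in siAURKA replicates 1, 2 and 3, against 32, 1 and 1 units in siNC replicates 1, 2 and 3. SNORD22 had 72, 2 and 1 units in siAURKA replicates 1, 2 and 3, against 2, 26 and 1 units in siNC replicates 1, 2 and 3, and SNORD30 had 9, 3 and 13 units in siAURKA against 12, 4 and 3 units in siNC. RF00099, another snoRNA gene inside SNHG1, had 40, 13 and 1 units in siAURKA replicates 1, 2 and 3, against 41, 1 and 12 units in siNC replicates 1, 2 and 3. In both groups SNORD26, SNORD27 and RF00099 were highest in the library numbered 1, while SNORD22 and SNORD30 did not share that order. SNORD25 and SNORD28 stood at 1 unit in all 6 libraries, SNORA24 at 2 to 7 units and SNORA9 at 1 or 2 units. Over the whole table, 541 of 943 snoRNA genes were at 0 in all 6 libraries and 35 were tested, so levels of mature snoRNAs cannot be set against those of their hosts here.

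Genes of the surrounding pathways gave no list with an edgeR call (0% of all tested genes were called). For each list up to 4 genes with the smallest unadjusted p are named, all with an edgeR adjusted p of 0.9999. Exons of other genes cover 49.6% of exonic bases in EPB41L4A-AS1, 48.6% in EIF4A1, 42.5% in MATR3, 33.4% in SNHG16 and 25.4% in SMG6. How reads of such shared bases were divided was not tested. Of the other snoRNA hosts, mostly noncoding but with protein-coding genes among them, 22 of 23 listed were tested. Their median log2 fold change was -0.01, with 9 above and 13 below 0. SNHG20 came first, at 3.36 ± 1.78 CPM in siAURKA and 0.985 ± 0.382 CPM in siNC (SD, n = 3 each), a log2 fold change of 1.77 (SE 0.60, edgeR unadjusted p = 0.0192). Its pair differences in log2 CPM were 2.64, 2.23 and -0.09. The next were SNHG16 with pair differences of 0.17, 0.34 and -2.03, EPB41L4A-AS1 with -0.26, -0.05 and -1.66, and SNHG4 with -0.39, -0.67 and -0.17, with edgeR unadjusted p from 0.305 to 0.420. Pair 3 thus set most of the log2 fold change of SNHG16 (-0.61) and of EPB41L4A-AS1 (-0.53). Relative to the other 5 libraries, siNC replicate 2 was higher by a median of 0.06 log2 units over these hosts.

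Of the other long intergenic or nuclear noncoding RNAs, 19 of 20 were tested, with a median log2 fold change of 0.20, 10 above and 9 below 0. In siNC replicate 2 they deviated by a median of -0.56 from the other libraries, and 11 of the 19 were lowest there, beside 29.4% of all tested genes. THUMPD3-AS1 had pair differences of 0.37, 0.55 and 0.53 in log2 CPM (edgeR unadjusted p = 0.240) and PSMA3-AS1 of 0.13, 0.92 and 0.34 (edgeR unadjusted p = 0.258). HOTAIR, a noncoding RNA of the HOXC cluster, had pair differences of -1.42, 0.33 and -0.36 (edgeR unadjusted p = 0.268). LINC00665 stood at 0 to 0.289 CPM in siAURKA and 0.334 to 0.417 CPM in siNC libraries, around the floor of counting, so no fold is given. Of the 19, 6 were higher in siAURKA in 3 of 3 pairs and 2 lower, beside 17.9% and 17.6% of all tested genes.

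Proteins that assemble with the nuclear RNAs did not pass the test either. The 15 paraspeckle proteins, which bind NEAT1 or its bodies, had a median log2 fold change of 0.01 (8 above and 7 below 0). MATR3, a nuclear matrix RNA-binding protein, came first with a log2 fold change of 0.47 (SE 0.30, edgeR unadjusted p = 0.162) and pair differences of -0.06, 1.12 and 0.38 in log2 CPM. RBM14, a paraspeckle protein needed to build the body, had pair differences of -0.54, -0.42 and -0.28, and SMARCA4 of 0.36, -0.01 and 0.27, with edgeR unadjusted p of 0.274 and 0.493. Of the 15, 3 were lower in siAURKA in 3 of 3 pairs and 1 higher, beside 17.6% and 17.9% of all tested genes. Both libraries numbered 1 stood above the other 4 for 10 of the 15, beside 26.9% of all tested genes.

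The 16 speckle and SR splicing proteins had a median log2 fold change of 0.07 (10 above and 6 below 0). TRA2B, a splicing activator, had pair differences of -0.01, -0.14 and -0.98 in log2 CPM, CLK1, a kinase of SR proteins, of -0.01, 0.76 and 0.15, SRSF4 of 0.20, -0.02 and 0.16, and TRA2A of 0.12, 0.23 and 0.09, with edgeR unadjusted p from 0.334 to 0.701. Both libraries numbered 1 stood above the other 4 for 12 of the 16, beside 26.9% of all tested genes, and siNC replicate 2 was the lowest library for 10 of the 16, beside 29.4%. No test of these shares was made.

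Of the 16 snoRNP proteins and assembly factors, which package snoRNAs, 7 were above and 9 below 0, with a median log2 fold change of -0.01. NOLC1, a nucleolar chaperone of snoRNPs, had 147, 54.2 and 66.7 CPM in siAURKA replicates 1, 2 and 3, against 54.2, 41.6 and 32.8 CPM in siNC replicates 1, 2 and 3. It was higher in siAURKA in 3 of 3 pairs, with a log2 fold change of 1.06 (SE 0.44, edgeR unadjusted p = 0.0456, adjusted p = 0.9999). The groups overlapped narrowly, siAURKA replicate 2 at 54.15 CPM lying below siNC replicate 1 at 54.16 CPM. DESeq2 with the replicate block called NOLC1, the only gene of the 8 companion lists that it called. That fit called 1.31% of all tested genes, so 1 call is not a result about the lists. NOP58, a core protein of box C/D snoRNPs, had pair differences of 0.04, 1.83 and 0.15 in log2 CPM, so that only the pair with siNC replicate 2 was far from 0. SNU13, another box C/D core protein, had pair differences of -0.91, -0.79 and -0.24, and SHQ1, an assembly factor of box H/ACA snoRNPs, of -0.91, -0.10 and 0.08, with edgeR unadjusted p of 0.292 and 0.417.

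The 16 nonsense-mediated decay factors, which act on the spliced hosts, had a median log2 fold change of -0.03 (7 above and 9 below 0). SMG6, the endonuclease of that pathway, came first with a log2 fold change of -0.61 (SE 0.37, edgeR unadjusted p = 0.140) and pair differences of 0.04, -1.34 and -0.31 in log2 CPM. EIF4A3 and MAGOH, of the exon junction complex, had pair differences of -0.06, -0.37 and -0.25 for EIF4A3 and 0.74, 0.07 and 0.13 for MAGOH. UPF1, the central helicase, had -0.14, -0.22 and -0.28, and edgeR unadjusted p of these 3 genes ran from 0.442 to 0.517. Of the 16, 3 were higher in siAURKA in 3 of 3 pairs and 4 lower, beside 17.9% and 17.6% of all tested genes.

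The 8 Pumilio proteins and NORAD-bound proteins had a median log2 fold change of 0.15, with 7 above and 1 below 0. CDC5L, a splicing factor, had pair differences of 0.11, 0.79 and 0.17 in log2 CPM, and the topoisomerase TOP1 of 0.32, 0.19 and 0.23. PUM2, a Pumilio repressor that NORAD binds, had pair differences of 0.04, 0.63 and 0.72, and the mRNA export factor ALYREF of 0.25, 0.34 and -0.08, and edgeR unadjusted p of the 4 ran from 0.479 to 0.708. Of the 8, 3 were higher in siAURKA in 3 of 3 pairs and 0 lower, beside 17.9% and 17.6% of all tested genes.

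Of the 22 genes that encode ribosomal and translation proteins with a 5′ pyrimidine tract or that host snoRNAs, 8 were above and 14 below 0, with a median log2 fold change of -0.12. EIF4A1, a translation initiation helicase that hosts snoRNAs, had pair differences of 0.40, 0.39 and 0.45 in log2 CPM, RPL23A of 0.28, 0.90 and -0.03, RPS3 of -0.08, -0.60 and -0.14, and NAP1L1, a histone chaperone, of 0.10, 0.39 and 0.29, with edgeR unadjusted p from 0.275 to 0.474. Both libraries numbered 1 stood below the other 4 for 18 of the 22, beside 24.5% of all tested genes; no test of this share was made.

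The genes most like MALAT1 and GAS5 in their course over the 6 libraries were sought among 10484 genes with a mean of at least 10 CPM, as the smallest root-mean-square distance between centred log2 CPM values. Those nearest MALAT1 were VWA8 at 0.076 log2 units, HIF1A at 0.079, RBBP6 at 0.083, PTPRM at 0.086 and CKAP5 at 0.099, where the median gene lay at 0.904. Of the members, NEAT1 lay at 0.405, NORAD at 0.556, SNHG1 at 0.802, GAS5 at 1.12, SNHG15 at 1.16 and TUG1 at 1.37 from MALAT1. SNHG8 was below the CPM limit. The distance of TUG1 was set largely by siNC replicate 2, with 1.90 log2 CPM there against 6.71 to 7.35 in the other libraries. Distances without that library were not computed, so whether TUG1 would still lie behind 3 hosts was not tested. HIF1A, the hypoxia-induced transcription factor, had 515, 202 and 243 CPM in siAURKA replicates 1, 2 and 3, against 573, 93.0 and 244 CPM in siNC replicates 1, 2 and 3. Those nearest GAS5 were PSME2 at 0.039, BNIP3L at 0.058, RPL34 at 0.060, TMEM222 at 0.060 and ORMDL2 at 0.062, where the median gene lay at 0.501, SNHG15 at 0.301 and SNHG1 at 0.321. RPL34, a ribosomal protein, had 93.9, 149 and 163 CPM in siAURKA replicates 1, 2 and 3, against 93.0, 142 and 173 CPM in siNC replicates 1, 2 and 3. These distances describe 6 libraries, in which same-numbered libraries are close in count-weighted GC content.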

How the data were processed

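RNA from LX2 cells was sequenced in 6 libraries, grouped by their labels. The authors deposited a table of whole numbers, read as estimated counts per gene; reads were aligned with HISAT2 to GRCh38, per the submitters' processing notes. How reads were counted, with which tool, strand setting and annotation release, is not given in the sources used here. Of values from 1 to 24, 30.3% to 34.0% in a library were multiples of 4, where equal frequencies give 25%; if a fragment is worth 4 units, totals overstate depth by that factor, and a floor of 3 fragments (12 units) is 0.225 to 0.514 CPM, covering counting error only. Rounding before count tests altered nothing, the values being whole. All 37 mitochondrial chromosome genes were at 0.

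Identifiers were matched to GENCODE release 29 (57980 matched, 263 not). Genes were kept by filterByExpr. The main result is from the quasi-likelihood test of edgeR after TMM scaling, siAURKA over siNC, with no covariate; p-values were adjusted by Benjamini-Hochberg over all tested genes, with a threshold of 0.05; log2 CPM used a prior count of 2. The SE given for edgeR is the absolute log2 fold change divided by the square root of the F statistic, not a fitted standard error. Fits were tested on simulated counts drawn with no effect of replicate number or GC content. That test thus does not cover the replicate pattern of these data. The alternatives were other scalings, no filter, DESeq2, limma-voom, a replicate block, GC and length offsets (loess span 0.4), and leaving out libraries.

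Deviations of same-numbered libraries from group means correlated at 0.647, 0.477 and 0.302 over genes, and other combinations at -0.525 to 0.040, so numbers were taken to pair libraries; this rests on the data, since the labels name no shared day.

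The members, 8 companion lists and tests were chosen with earlier results of these data known. The text names the members, AURKA, up to 4 genes per list by smallest p, snoRNA genes inside members and the 5 genes nearest MALAT1 and GAS5; the genes inside TUG1 were chosen after their values were seen. A list member that this rule names is not reported here. The tests ran in R 4.3.3 with DESeq2 1.42.0, limma 3.58.1 and edgeR 4.0.16; numpy 2.4.6, pandas 2.3.3 and matplotlib 3.10.9 were used under Python 3.11.15.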

Additional observations from a re-analysis of the deposited data

How the results depend on the processing

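The count of genes called by edgeR stayed at 0 under every scaling, filter, block and offset tried, and ran from 0 to 2 when libraries were left out, with 2 called without siAURKA replicate 2. DESeq2 called 17 without and 246 with the replicate block, and 125, 285 and 56 with the block when both libraries numbered 1, 2 or 3 were left out (chosen after seeing the data). The count of members called was 1 (NORAD) with DESeq2 and the block, and 1 when the libraries numbered 2 were left out of that fit, and 0 in every other setting and without any library. The pairing changed no other member's call: with the edgeR replicate block the log2 fold change of NORAD was -0.53 (adjusted p = 0.552). NORAD ran from -1.36 to 0.29 over the fits that each left out 1 library; the lone high library of number 1 that remained sets this by construction.

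TUG1 (0.22 to 1.42 without 1 library) and SNHG15 (-0.81 to -0.46) kept their direction in all 19 alternatives, but TUG1 was 1.80 with limma-voom, 1.56 and 1.6 with the edgeR and DESeq2 blocks, 1.49 with block and offsets, and 2.77, 0.31 and 2.61 with the DESeq2 block without the libraries numbered 1, 2 and 3. Leaving out 1 library reversed the sign of MALAT1 (-0.42 to 0.82), NEAT1 (-0.13 to 0.44), GAS5 (-0.32 to 0.10), SNHG1 (-0.16 to 0.21) and SNHG8 (-0.090 to 0.84), none of them called. MALAT1 was also reversed without both libraries numbered 2, at -0.14 with edgeR and -0.10 with DESeq2 and the block. SNHG1, near 0 throughout, was reversed at 0.011 with upper-quartile scaling, 0.024 without a filter, 0.0011 with limma-voom, 0.0074 with the edgeR block, and 0.039 and 0.028 with the DESeq2 block without the libraries numbered 1 and 3; the cause was not tested. The nuclear minus host contrast between groups stayed above 0, from 0.034 to 1.69 without 1 library, and siNC replicate 2 deviated in it by -2.61, or -1.34 without TUG1. Depth limits SNHG8 most, at 37 to 193 units.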
